A study of Mus musculus with 9 samples.

Results

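Ifi27 and its paralogue Ifi27l2a are interferon-inducible genes that lie side by side on mouse chromosome 12, and both were followed here across natural killer (NK) cell cultures with and without functional Tyk2. The members were found by symbol in the platform annotation. Of 41345 probe sets on the array, 2 carry a member symbol. Probe set 17278200 carries Ifi27 alone. Probe set 17283549 is the only one that carries Ifi27l2a, and it carries Ifi27l2b as well, so its reading cannot be assigned to either gene and is called the shared probe set below. With 1 probe set each, the choice of the brightest made no difference. Probe set 17283556 carries Ifi27l2b alone and is given beside the shared one.

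NK cells, lymphocytes that kill infected or transformed cells, were enriched from spleens of female C57BL/6N mice with DX5 magnetic beads and expanded in culture with 5000 U/ml of recombinant human IL-2 for 7 days. The mice lacked Tyk2 (Tyk2-/-), carried a kinase-inactive Tyk2 (Tyk2K923E) or were wild type (WT). Each of 3 independent experiments gave 1 array per genotype, with cells pooled from 3 to 4 mice, so there were 9 arrays and 3 per genotype. The deposited values are RMA values on the log2 scale, and the array medians ranged from 5.42 to 5.48.

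Type I interferons bind a receptor of the chains IFNAR1 and IFNAR2, on which the kinases TYK2 and JAK1 sit. Their signal leads to the binding of interferon-stimulated response elements in the promoters of target genes. The Ifi27 family, also called ISG12, belongs to those targets and encodes small hydrophobic membrane proteins. Names in the family have shifted: the RefSeq gene table lists Ifi27l1 and ISG12a as synonyms of Ifi27, whereas Ifi27 and Isg12 are also synonyms of Ifi27l2a. In that table (assembly GRCm38.p6) the order on chromosome 12 is Ifi27l2a, Ifi27, Ifi27l2b, and the annotated spans of Ifi27l2a and Ifi27 overlap.

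The Ifi27 difference from WT was already known when the pair was chosen, so the values of both members against WT are a description and carry no test. Ifi27 read 7.22, 7.00 and 7.06 in Tyk2-/- cells and 6.80, 6.66 and 6.45 in Tyk2K923E cells of experiments 1, 2 and 3, against 8.55, 8.58 and 8.20 in WT cells. All 6 mutant arrays lay below all 3 WT arrays. Every Tyk2-/- array lay below every WT array for 2.74% of the 12579 genes tested, every Tyk2K923E array did so for 3.8%, and both held for 1.1%. Since the pair was chosen on these contrasts, nothing is read from its place among those genes.

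Mean Ifi27 levels were 7.10 ± 0.11 in Tyk2-/-, 6.64 ± 0.18 in Tyk2K923E and 8.44 ± 0.21 in WT cells (log2 units, SD, n = 3 each). The mean difference from WT was -1.35 in Tyk2-/- (2.54-fold lower) and -1.80 in Tyk2K923E (3.49-fold lower). Within experiments it ranged from -1.57 to -1.14 in Tyk2-/- and from -1.92 to -1.75 in Tyk2K923E. The Tyk2K923E differences thus spread less between experiments, with an SD of 0.10 against 0.22 for Tyk2-/-. All 9 Ifi27 readings lay above the array median, between percentiles 66.5 and 86.1 of their array, so the mutant cells still gave a signal above that of most probe sets. In bulk cultures, fewer cells that express a gene and less RNA per cell cannot be told apart.

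**Figure D1:**
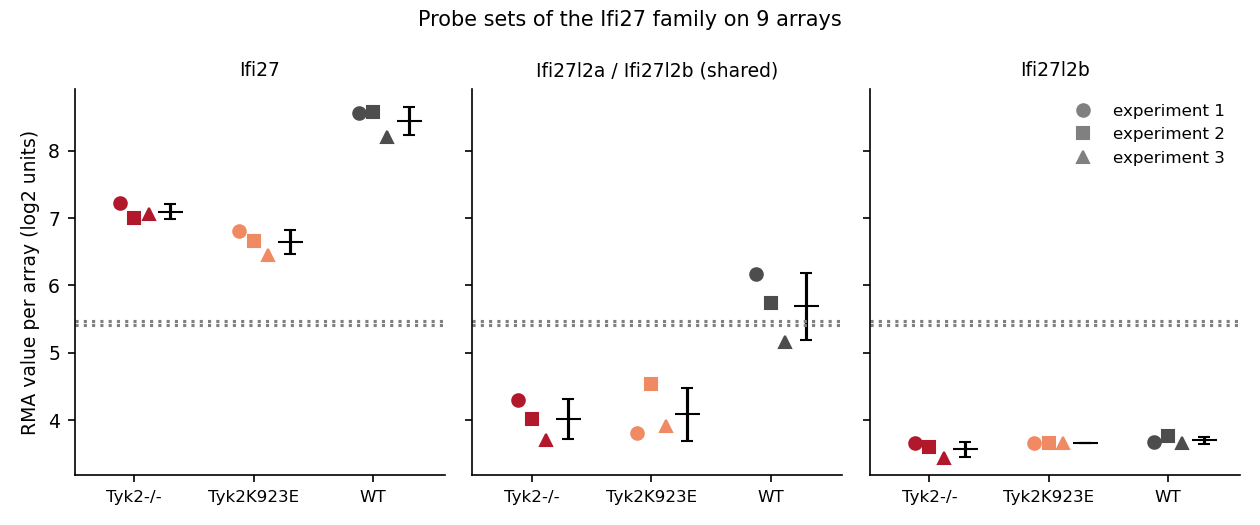
RMA values (log2 units) of the 3 probe sets of the Ifi27 family on each of 9 arrays, by genotype, with the marker shape giving the experiment, black bars the mean ± SD (n = 3) and dotted lines the lowest and highest array median. Ifi27 and the shared probe set are lower on every mutant array than on any WT array, and the probe set of Ifi27l2b alone stays between 3.45 and 3.77 throughout.

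The shared probe set of Ifi27l2a and Ifi27l2b was lower in the mutants too. It read 4.31, 4.02 and 3.72 in Tyk2-/- cells and 3.81, 4.53 and 3.92 in Tyk2K923E cells of experiments 1, 2 and 3, against 6.16, 5.74 and 5.16 in WT cells. As with Ifi27, the 6 mutant arrays did not overlap the WT arrays, which held for 0.813% of the 25335 annotated probe sets. The means were 4.02 ± 0.30 in Tyk2-/-, 4.09 ± 0.39 in Tyk2K923E and 5.69 ± 0.50 in WT cells (SD, n = 3 each), with differences from WT of -1.67 (3.19-fold lower) and -1.60 (3.04-fold lower). The Tyk2-/- difference ranged from -1.86 to -1.45 over the experiments. The Tyk2K923E difference was -2.35 in experiment 1, against -1.21 and -1.25 in experiments 2 and 3.

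The shared probe set was dim. It reached the array median on 2 of 3 WT arrays and on 0 of 6 mutant arrays, where it lay between the 17.0th and the 29.5th percentile of its array. It therefore missed the filter that the genes tested had to pass (the array median on at least 3 of 9 arrays). No background was measured, and near the low end of the scale a difference can be understated.

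The probe set of Ifi27l2b alone sat lower still and was nearly flat. It read 3.67, 3.60 and 3.45 in Tyk2-/- cells and 3.67 on all 3 arrays of Tyk2K923E cells, against 3.69, 3.77 and 3.67 in WT cells. Its differences from WT were -0.13 in Tyk2-/- and -0.04 in Tyk2K923E, and the groups overlapped. It lay between the 13.8th and the 17.4th percentile of its array everywhere, the range that the shared probe set approached in mutant cells. Its Tyk2K923E readings were identical (SD 0.0). So near the low end of the scale, a flat reading cannot show that Ifi27l2b was unchanged. How much of the shared signal comes from Ifi27l2a was not tested.

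**Figure D2:**
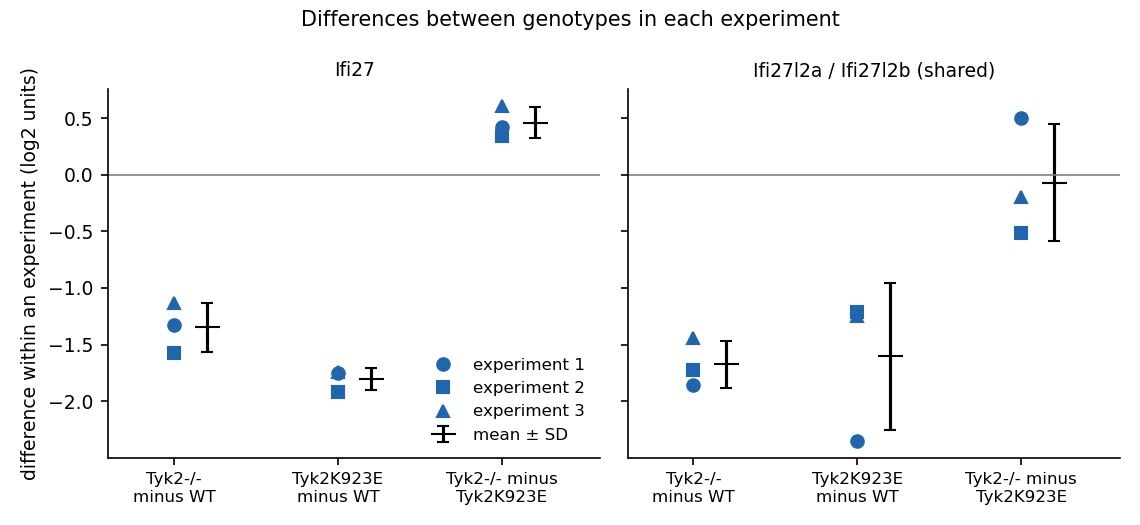
Differences between genotypes within each experiment (log2 units; marker shape gives the experiment, black bars the mean ± SD, n = 3) for Ifi27 and for the shared probe set. Ifi27 in Tyk2-/- exceeds Tyk2K923E in all 3 experiments by 0.34 to 0.61, whereas the shared probe set takes either sign.

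The comparison of Tyk2-/- with Tyk2K923E asks whether the absent and the inactive kinase differ, and the choice of the pair did not use it, although it rests on the same mutant arrays. Ifi27 was higher in Tyk2-/- than in Tyk2K923E cells by 0.42, 0.34 and 0.61 in experiments 1, 2 and 3, and the groups did not overlap, which was so in this direction for 2.89% of genes tested. The mean difference was 0.46 (95% confidence interval 0.16 to 0.75 in limma). It did not pass over all genes: the limma adjusted p was 1 (unadjusted p = 0.00722), and 0.34 with the experiments paired. In this comparison 3 of 12579 genes (0.0238%) passed in either fit. The order of Ifi27 levels was the same in each experiment, with Tyk2K923E lowest, Tyk2-/- above it and WT highest, but the lower neighbours in that order were not separated by the test.

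The shared probe set showed no such order. It differed between Tyk2-/- and Tyk2K923E by 0.50, -0.51 and -0.20 in experiments 1, 2 and 3, with a mean of -0.07 (95% confidence interval -0.71 to 0.56, limma adjusted p = 1 over 25335 annotated probe sets). That interval includes the Ifi27 difference of 0.46. With the experiments paired, the interval of the shared probe set is -0.58 to 0.44 and ends just below that value (limma adjusted p = 0.949). The Ifi27 interval in the same paired fit, 0.25 to 0.66, overlaps it. Whether the 2 probe sets differ in this comparison was not tested. Among the annotated probe sets 0.0118% passed.

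Levels were also compared between the 3 experiments, with genotype held in the model. Ifi27 averaged 7.53, 7.41 and 7.24 over the 3 genotypes in experiments 1, 2 and 3, and the shared probe set 4.76, 4.77 and 4.26. Experiment 3 was thus lowest for both. In limma's F test 28.7% of the 12579 genes differed between experiments, and Ifi27 missed the threshold (F = 6.08, adjusted p = 0.0748). It passed without Tyk2-/- replicate 2 (adjusted p = 0.045) or replicate 3 (adjusted p = 0.0403). The shared probe set missed it as well (F = 3.51, adjusted p = 0.288, with 10.5% of annotated probe sets called) and passed only without Tyk2K923E replicate 1 (adjusted p = 0.0327). For Ifi27 the highest and lowest mean of an experiment were 0.29 apart, beside differences from WT of -1.35 and -1.80.

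The genes nearest to the pair in pattern were sought among all genes tested, by the root mean square distance over 9 arrays between deviations from each gene's own mean. A gene that is flat on all arrays would lie 0.778 from Ifi27, and the median gene lay at 0.792. Nearest to Ifi27 was Rtp4, an interferon-stimulated chaperone, at 0.208. Rtp4 read 5.77, 5.70 and 5.55 in Tyk2-/- and 5.76, 5.29 and 5.10 in Tyk2K923E cells, against 6.72, 7.05 and 6.57 in WT cells. As with Ifi27, all 6 mutant arrays lay below all 3 WT arrays. Its mean was 5.68 in Tyk2-/- and 5.38 in Tyk2K923E, but unlike those of Ifi27 the arrays of the 2 mutants overlapped.

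Next to Ifi27 came the chemokine Ccl5 (0.402), the inflammatory caspase Casp4 (0.411), the tripartite motif gene Trim30d (0.426), the p200 family gene Ifi214 (0.427) and Usp18 (0.429), a protease that removes ISG15 and restrains interferon signalling. For the shared probe set the nearest gene was Casp4, at 0.333, and Ifi27 itself was second of 12579 at 0.354, where the median gene lay at 0.851. Trim30d (0.417), Rtp4 (0.439), Ccl5 (0.516) and Ifi214 (0.525) followed. The place of Ifi27 follows largely from the choice of the pair on its difference from WT, and nothing is read from it. The nearest genes of both members were drawn from 6 genes other than Ifi27. They were selected for a pattern in which WT stands above both mutants, so their differences from WT are a description: they ranged from -1.99 (Casp4) to -0.86 (Trim30d) in Tyk2-/- and from -1.80 (Casp4) to -0.86 (Trim30d) in Tyk2K923E. Ifi214 read 4.04 to 4.82 on the mutant arrays, under every array median, and passed the filter only through its WT arrays. Trim30d was dim there too, at 4.82 to 5.49. A dim gene could thus enter the search through the very pattern that was sought.

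**Figure D3:**
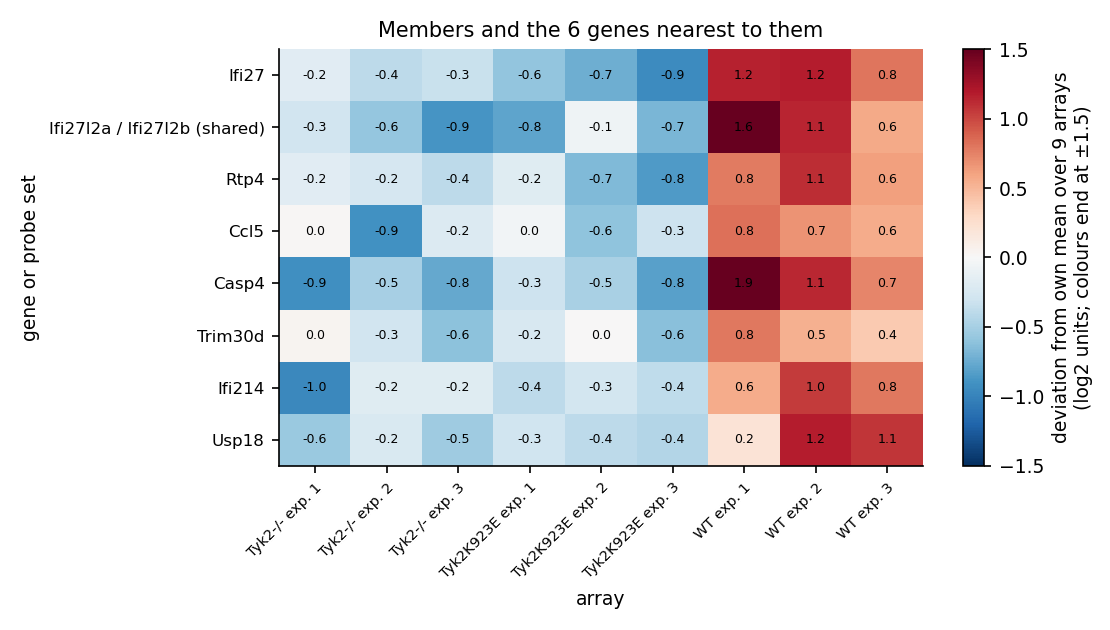
Deviation of each array from the gene's own mean over 9 arrays (log2 units, printed in each cell) for Ifi27, the shared probe set and the 6 genes nearest to them. The 3 WT arrays on the right are above the mean in every row, and the 6 mutant arrays are at or below it except for values that round to 0.0.

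Promoter sequence in the RefSeq table (GRCm38.p6, 250 bases before to 50 after a gene's start) was at hand for 3 of those 6 genes, Casp4, Trim30d and Ifi214. It was at hand for no gene of the Ifi27 family, so the promoters of the pair were not searched. The core of the interferon-stimulated response element was searched on both strands because it is the site bound downstream of TYK2. It matched in 2 of the 3, Trim30d and Ifi214, and in 3.44% of all 32851 promoters in the table. The 3 genes were selected from these data for their pattern, so the gap between those shares was not tested and says nothing of the pair. The interferon-gamma activated site TTCNNNGAA matched in 0 of the 3 and in 8.3% of all. The 80 bases around each match are shown 5′ to 3′ on the gene's strand, with the match in capitals, for Trim30d at chr7:104507846-104507925 (minus strand, 41 to 32 bases before the start) and for Ifi214 at chr1:173535992-173536071 (minus strand, 79 to 70 bases before the start).
Trim30d: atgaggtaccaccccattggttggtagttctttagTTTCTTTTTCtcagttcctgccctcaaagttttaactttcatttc
Ifi214: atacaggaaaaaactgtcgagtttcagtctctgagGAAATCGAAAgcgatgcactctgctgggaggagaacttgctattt
The Trim30d match reads on the opposite strand to that of Ifi214. A match describes these letters and is no measured binding.

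The genes beside the family on chromosome 12 lay closer to their WT levels than Ifi27 and the shared probe set did. Since the pair was chosen on its difference from WT, nearly any gene would do so, and the gap was not tested. The nearest measured gene on one side, Ddx24, which encodes an RNA helicase, differed from WT by 0.04 in Tyk2-/- and -0.02 in Tyk2K923E. Otub2, a deubiquitinase, differed by -0.02 and 0.15, and Fam181a by 0.13 and 0.02. Asb2, a ubiquitin ligase subunit, was lower by 0.63 in Tyk2-/- and by 0.46 in Tyk2K923E but passed in neither fit (adjusted p = 1 unpaired in both comparisons, and 0.299 and 0.358 paired). On the other side Ppp4r4, Serpina10, Serpina6 and Serpina16 lay below the filter, with differences of -0.06 to 0.19 in Tyk2-/- and 0.02 to 0.17 in Tyk2K923E.

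**Figure D4:**
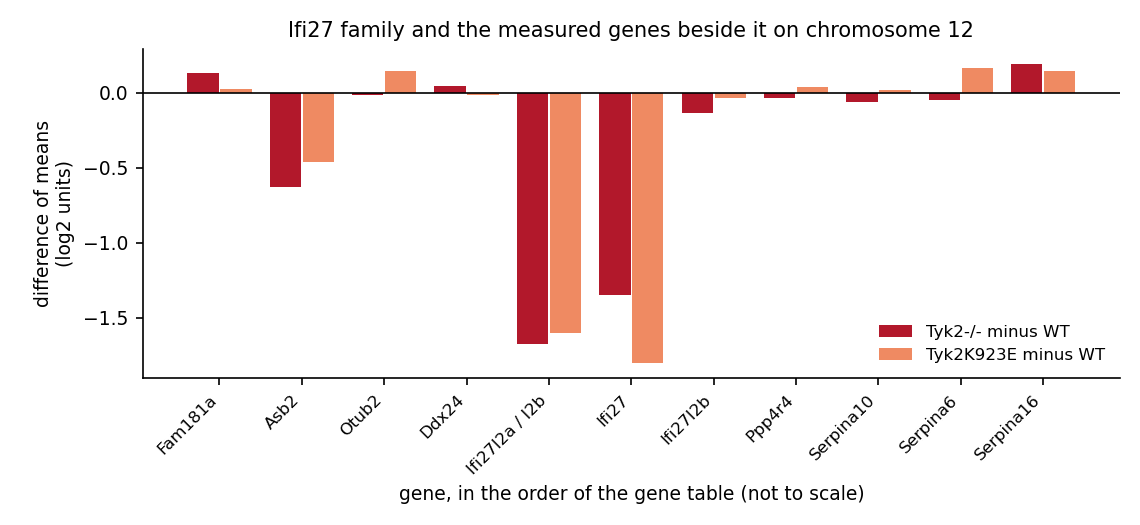
Difference of genotype means from WT (log2 units; bars are means over 3 arrays per genotype, without error bars) for the 3 probe sets of the Ifi27 family and the 4 measured genes on each side, in chromosome order and not to scale. Ifi27 and the shared probe set reach -1.80 and -1.67, and among the 8 neighbours the lowest is Asb2 at -0.63.

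The pathway that leads to Ifi27 was followed from ligand to target. Interferon ligands were mostly dim: 8 of 19 with a probe set of their own were tested, with medians of -0.02 in both mutants, and 11 lay under the array median on all 9 arrays. Ifng, the type II interferon made by NK cells themselves, differed by -0.31 in Tyk2-/- and -0.17 in Tyk2K923E, and Ifnl3 by -0.18 and -0.41. Ifna14 differed by 0.27 and 0.18. No ligand passed in limma, paired or unpaired. At an unadjusted p under 0.05 in the unpaired fit there were 2 in Tyk2-/- (Ifng lower, Ifna14 higher), where 2.08% of all genes tested were under it, and 1 in Tyk2K923E (Ifnl3, lower), where 4.21% were. In the paired fit there were 2 in Tyk2-/- (9.08% of all genes) and 3 in Tyk2K923E (10% of all genes).

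Among receptor chains, kinases, transcription factors and regulators, 12 of 16 tested genes were lower in Tyk2-/- (median -0.07) and 14 of 16 in Tyk2K923E (median -0.16). Over all genes tested 48.1% and 49.1% were lower, with medians of 0.0045 and 0.002. No gene of this list passed in limma in either fit. At an unadjusted p under 0.05 in the unpaired fit, 2 were lower in Tyk2-/- and 5 in Tyk2K923E, where 1.22% and 2.41% of all genes were. In the paired fit 3 and 8 were lower, where 4.66% and 5.14% of all genes were. The receptor chains Ifnar1 and Ifnar2 differed by -0.11 and -0.12 in Tyk2-/- and by -0.14 and -0.28 in Tyk2K923E. Irf9, a DNA-binding factor of the interferon response, differed by -0.49 and -0.45. Every mutant array lay below every WT array for it, as for 1.1% of genes tested. Usp18 differed by -1.26 and -1.19, Irf7 by -0.33 and -0.41, and Socs1, an inhibitor of JAK kinases, by -0.0036 and -0.27. Tyk2 itself differed by 0.39 and -0.10. Where its probes lie relative to the deleted part is not given in the sources used here, so this does not check the genotype labels.

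Other type I interferon-stimulated genes were nearly all lower with the pair. Usp18, Irf7, Irf9 and Stat2 are counted both in this list and in that of receptor chains, kinases, transcription factors and regulators. In each mutant 42 of 43 tested members were lower, with a median of -0.25 in both. Of all genes tested 48.1% and 49.1% were lower. The filter asks for 3 arrays, as many as WT has, so a dim gene can enter through the group where it is high. Mx1 averaged 5.85 in WT and 5.32 and 4.90 in Tyk2-/- and Tyk2K923E, with both mutant means under the array medians. How far the filter shaped these counts was not tested. Every mutant array lay below every WT array for 15 of the 43 in Tyk2-/- and for 17 in Tyk2K923E, against 2.74% and 3.8% of all genes tested. In the unpaired limma fit 0 members passed, against 0.0159% of genes called lower in Tyk2-/- and 0.00795% in Tyk2K923E, and 13 and 17 were lower at p under 0.05 before adjustment (1.22% and 2.41% of genes tested). In the paired limma fit Rtp4 fell in Tyk2-/- (adjusted p = 0.0446, with 0.0636% of genes called lower), and Rtp4, Mx1 and Lgals3bp fell in Tyk2K923E (adjusted p = 0.0375 each, also 0.0636%). The antiviral GTPase Mx1 differed by -0.54 in Tyk2-/- and -0.96 in Tyk2K923E, Lgals3bp, a secreted glycoprotein, by -0.38 and -0.63, and Phf11b by -0.36 and -0.67. These 3 genes had the lower mean in Tyk2K923E, but they were among those named for a small p in that mutant against WT. That choice favours a lower mean there, so no likeness to Ifi27 is read from it. Between the mutants none of the 3 passed (paired limma adjusted p = 0.452 each). Oasl1, of the oligoadenylate synthetase family, was named for its p in Tyk2-/- and differed by -0.74 and -0.68.

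Other membrane proteins of the interferon response had smaller differences from WT than the pair. Such a gap holds for nearly any gene, as the pair was chosen on its difference from WT, and it was not tested. Of 8 tested, 6 were lower in Tyk2-/- and 5 in Tyk2K923E, both with a median of -0.08. Ifitm3, Bst2 and Ly6e among them are also counted with the interferon-stimulated genes above. In limma 0 passed in either fit. At an unadjusted p under 0.05 there were 0 in the unpaired fit, and in the paired fit 1 in Tyk2-/- (Ly6c2) and 2 in Tyk2K923E (Ly6c2 and Ifitm1), where 9.08% and 10% of all genes were under it. Ifitm3, which blocks virus entry, differed by -0.07 and -0.28, Bst2 (tetherin, which holds back budding virus) by -0.12 and -0.09, and Ly6e by -0.04 and -0.15. Ifitm1 was higher by 0.22 in Tyk2-/- and by 0.38 in Tyk2K923E. Ly6c2 had the lowest values of the list, at -0.52 and -0.66, with overlapping groups.

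Genes tied to ISG12 proteins in other cells, such as nuclear receptors of the NR4A family, the death ligand TRAIL and mitochondrial apoptosis genes, showed no common direction. Of 15 tested, 5 were lower in Tyk2-/- (median 0.05) and 6 in Tyk2K923E (median 0.02). In limma 0 passed in either fit. At an unadjusted p under 0.05 there were 0 in Tyk2-/- and 2 in Tyk2K923E in the unpaired fit (2.08% and 4.21% of all genes), and 2 and 3 in the paired fit (9.08% and 10%). The 2 of the unpaired fit were Nr4a2, which differed by 0.13 in Tyk2-/- and 0.47 in Tyk2K923E, and Tnfsf10, which encodes TRAIL, at -0.19 and -0.57. Nr4a1, reported to bind ISG12, differed by -0.15 and -0.10.

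The cultures carried NK markers throughout. The 9 markers with probe sets of their own averaged 10.58 to 10.66 in Tyk2-/- and 10.53 to 10.63 in Tyk2K923E, against 10.75 to 10.82 in WT cells. Of the 9, 6 were lower in each mutant, where 48.1% and 49.1% of all genes were. At an unadjusted p under 0.05, 2 were lower in Tyk2-/- and 3 in Tyk2K923E in the unpaired fit (1.22% and 2.41% of all genes). In the paired fit 4 and 4 were (4.66% and 5.14%). Prf1 was higher at that level in Tyk2K923E in both fits. Itga2, which encodes the DX5 antigen used for the enrichment, differed by -0.39 in Tyk2-/- and -0.71 in Tyk2K923E. All its mutant arrays lay below all its WT arrays, which held for 1.1% of genes tested. It fell in Tyk2K923E in the paired limma fit (adjusted p = 0.0375, with 0.0636% of genes called lower). The activating receptor gene Klrk1 differed by -0.32 and -0.47, also without overlap, and Klrd1 by -0.35 in both. Eomes, a transcription factor of NK cells, differed by 0.05 and 0.03, and the perforin gene Prf1 by 0.09 and 0.19. T cell markers averaged 7.98 to 8.31 in Tyk2-/- and 7.64 to 7.99 in Tyk2K923E, against 7.99 to 8.42 in WT cells, over 11 markers. That average covers bright markers, such as Cd3e (11.35 in WT) and Cd3g (11.50), and dim ones, such as Cd4 (5.38). Of 10 tested, 9 were lower in Tyk2-/- (median -0.09) and 10 in Tyk2K923E (median -0.40), beside the Ifi27 differences of -1.35 and -1.80. Cd8a was lowest, at -0.32 and -0.92. At an unadjusted p under 0.05, 0 and 4 were lower in the unpaired fit (1.22% and 2.41% of all genes). In the paired fit 0 and 6 were (4.66% and 5.14%), and none passed after adjustment. The part of NK and T cell markers in the Ifi27 differences was not tested. Of B cell markers 8 of 9, and of neutrophil markers 8 of 10, lay under the array median on all arrays. Of monocyte and macrophage markers 4 of 11, and of dendritic cell markers 4 of 8, did so. Monocyte and macrophage markers averaged 5.64 to 5.70 in Tyk2-/-, 5.66 to 5.78 in Tyk2K923E and 5.54 to 5.75 in WT cells. Dendritic cell markers averaged 6.46 to 6.63, 6.50 to 6.70 and 6.46 to 6.75 in the same order. These averages include bright markers, with Cd68 at 8.325 and Cd209a at 10.478 in WT cells.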

How the data were processed

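The deposited log2 values had been made by the authors with RMA in Partek 6.6, per the submitters' processing notes. The build they used is not given in the sources used here. The values were analysed without further transformation. Of 41345 probe sets, 23521 carried 1 gene symbol and 1814 several, and 16010 were not listed in the platform annotation. A gene was tested if a probe set with 1 symbol was at or above the array median on 3 or more of the 9 arrays, and its brightest such probe set stood for it, which left 12579 genes. With 3 arrays per genotype, a dim gene could pass through 1 genotype alone.

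Genotypes were compared with limma 3.58.1 in R 4.3.3 (lmFit, eBayes, all 9 arrays, Benjamini-Hochberg over all genes, threshold 0.05). The labels give the same experiment number to arrays of the 3 genotypes, so samples are paired. Deviations from genotype means correlated at 0.383 to 0.787 in 9 pairs of arrays that shared an experiment and at -0.71 to 0.559 in 18 pairs that did not. With the experiment as a block, 11 genes passed in Tyk2-/- against WT (4 unpaired), 11 in Tyk2K923E against WT (1 unpaired) and 3 between the mutants (3 unpaired). Since Ifi27l2a has no probe set of its own, the shared one was placed in a fit over all 25335 annotated probe sets without a filter, chosen after seeing the data. Experiments were compared with the moderated F test, genotype additive.

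The members and gene lists were chosen with earlier results of these data known. Named genes were the family, from each list up to 4 genes with the smallest p per comparison, the 6 genes nearest to each member and 4 neighbours per side, and further receptor genes were named for their role. The NK markers named were picked with their values in view. The procedure was tested on simulated data. Figures were drawn with matplotlib 3.10.9 in Python 3.11.15. The number of arrays limits the precision.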

Additional observations from a re-analysis of the deposited data

Results flagged for a closer look

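The probe set of Tyk2 differed from WT in opposite directions in the 2 mutants. It read higher than WT by 0.88, 0.06 and 0.23 in Tyk2-/- cells of experiments 1, 2 and 3 and differed from WT by -0.05, -0.13 and -0.11 in Tyk2K923E cells (log2 units), so each experiment gave the same pair of signs. The mean difference of Tyk2-/- from Tyk2K923E was 0.4854, and it did not pass in limma over all genes tested (adjusted p = 1, and 0.452 with the experiments paired). The groups overlapped, and experiment 1 gave the widest gap.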

How the results depend on the processing

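Differences of Ifi27 from WT were -1.47 to -1.23 in Tyk2-/- and -1.93 to -1.71 in Tyk2K923E under 21 alternatives in each comparison. Those of the shared probe set were -1.94 to -1.44 and -1.87 to -1.23 under 17. Leaving out arrays could not turn their sign, since every mutant array lay below every WT array. A change of filter or pairing could not move these differences of means, so the kept sign is no test. Ifi27 in Tyk2-/- against Tyk2K923E ranged from 0.36 to 0.54 and passed under none of 22 (adjusted p 0.34 to 1). The shared probe set ranged from -0.36 to 0.15 there when arrays or experiments were left out, and turned positive without Tyk2K923E replicate 2 (0.15), without Tyk2-/- replicate 3 (0.08) or without experiment 2 (0.15). With the experiments paired as a block, 11 genes passed in each mutant against WT, in place of 4 and 1. With only the 2 genotypes compared, 2 and 0 passed. Leaving out arrays or experiments gave 0 to 4 genes in Tyk2-/- against WT, 0 to 2 in Tyk2K923E against WT, 0 to 3 between the mutants and 2250 to 3277 between experiments. The F of Ifi27 between experiments ranged from 2.84 to 10.7 in those fits and was 6.57 with the 70th percentile filter, where it passed (adjusted p = 0.0444). The F of the shared probe set ranged from 1.22 to 29.7. Fewer arrays were fitted in these cases, and otherwise the cause was not tested. The 70th percentile filter and the mean over probe sets gave no value for the shared probe set. Signal near the low end limits it.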
